A study of Mus musculus with 4 samples.

Results

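The transcripts described here are those of 40 genes of the cell cycle and of DNA replication, taken from a list of gene symbols. Probe sets of the array that name exactly 1 of these symbols were used, 99 in all, and every gene had at least 1. The genes are 40 of the 18193 named genes on the array, and they were split by role into 6 of the passage from G1 into S phase, 15 of DNA replication and 19 of mitosis. The cells were mouse embryonic stem (ES) cells, which self-renew in culture and can form all tissues of the embryo, and RNA was hybridised to 4 Affymetrix arrays, 1 array per group. The first pair comprised ES cells labelled constitutive Ring1B knockout (KO) and their control. The second pair comprised ES cells with a conditional double KO of Ring1A and Ring1B (dKO), taken on day 4, and a control of their own. The conditional cells were used, per the series' design text, because constitutive double KO cells could not be kept, and the deletion was brought about with OHT. The source of both control arrays is labelled wild-type. Strain, clone, feeder layer, the driver of the recombinase and whether the control of the double KO received OHT are not given in the sources used here. Ring1A, encoded by Ring1, and Ring1B, encoded by Rnf2, are the ubiquitin ligases of Polycomb repressive complex 1, a repressor of developmental genes.

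The cell cycle runs on cyclins, which activate cyclin-dependent kinases, and on the E2F transcription factors that switch on the genes of S phase once these kinases have inactivated the retinoblastoma proteins. In G1 the MCM2 to MCM7 helicase is loaded on origins by CDC6 and CDT1, and it is activated with CDC45 as S phase starts. Later in the cycle, cyclins A and B with CDK1, the Aurora and Polo kinases and the spindle checkpoint carry the cell through mitosis. Mouse ES cells divide rapidly with a short G1 phase and keep many of these genes active through most of the cycle. In bulk RNA such as this, fewer cells in a phase and less RNA per cell cannot be told apart.

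Each deposited value is a signal from MAS5, and signals were multiplied by 1 factor per array which brought the mean after trimming 2% from either end to 277 on all of them. Signals under a floor of 36.6 were set to it. Each gene is given by its brightest probe set, and signals of different probe sets are not compared as levels. Differences are on the log2 scale, knockout array minus the control array of its pair. With 1 array per group no test was possible and no difference has a replicate error. The nearest measure of error lies within arrays. Among the 27 members with several probe sets above the floor on all arrays, the pooled SD of the log2 difference between probe sets of a gene was 0.19 in the Ring1B pair, 0.27 in the dKO pair and 0.55 between the control arrays. Values across the pairs are therefore the least certain ones here.

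The labels were not settled by the targeted genes, each read at its brightest probe set. Rnf2 read 2579.7 on the Ring1B control, 2775 on the array labelled Ring1B KO, 2182 on the dKO control and 1986 on the array labelled dKO. This was 1 of 5 Rnf2 probe sets, and the others were not read for this check. Whether it lies in the deleted part is not known here. Ring1 read 146, 164, 44.7 and 55.6 in that order, and was no lower on the fourth array than on the third. The array names 33 Hox cluster genes, a class repressed by Polycomb complexes in ES cells. Of 22 above the floor, 13 were at least 2-fold higher on the array labelled Ring1B KO, beside 437 of 12343 genes. Of 23, 14 were at least 2-fold lower on the array labelled dKO, beside 1234 of 12353 genes. In these pairs 13 of the 22 and 22 of the 23 lay at the floor on 1 array, so the floor limits the sizes. In the Hox genes the pairs thus went opposite ways, and each array is called by its label. Were the labels of the second pair exchanged, every difference given for that pair would have the opposite sign, and these values do not settle whether they were. All 12 ES cell markers examined were above the floor on all 4 arrays, where Pou5f1 read 4304 to 7581 and Nanog 2585 to 4810.2. Being above the floor does not settle the cell type, since 11187 to 11871 of 18193 genes were so on each array, most fibroblast markers among them.

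All 40 members were above the floor on all 4 arrays, and 35 of them varied less than 2-fold from the lowest to the highest array. The other 5 were Ccnd2, Ccne2, Mcm6, Ttk and Cdc6. Per array, 11187 to 11871 of the 18193 genes were above the floor. The range over 4 arrays was not counted for all genes, so 35 of 40 has no background here. In the Ring1B pair 0 of 40 members were at least 2-fold apart, where 6.15% of 12343 genes were, and their log2 differences ran from -0.56 (E2f1) to 0.89 (Ccnd2). In the dKO pair 1 of 40 was at least 2-fold apart, where 13.0% of 12353 genes were. That gene was Ccnd2, which was lower, as were 9.99% of all genes. The other 39 ran from -0.78 (Ccnd3) to 0.64 (Mcm3). Members are bright, and bright genes differed less: of 2631 genes with a mean signal of at least 1000, a value set after the data were seen, 1.67% and 3.46% were at least 2-fold apart in the Ring1B pair and in the dKO pair.

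**Figure D1:**
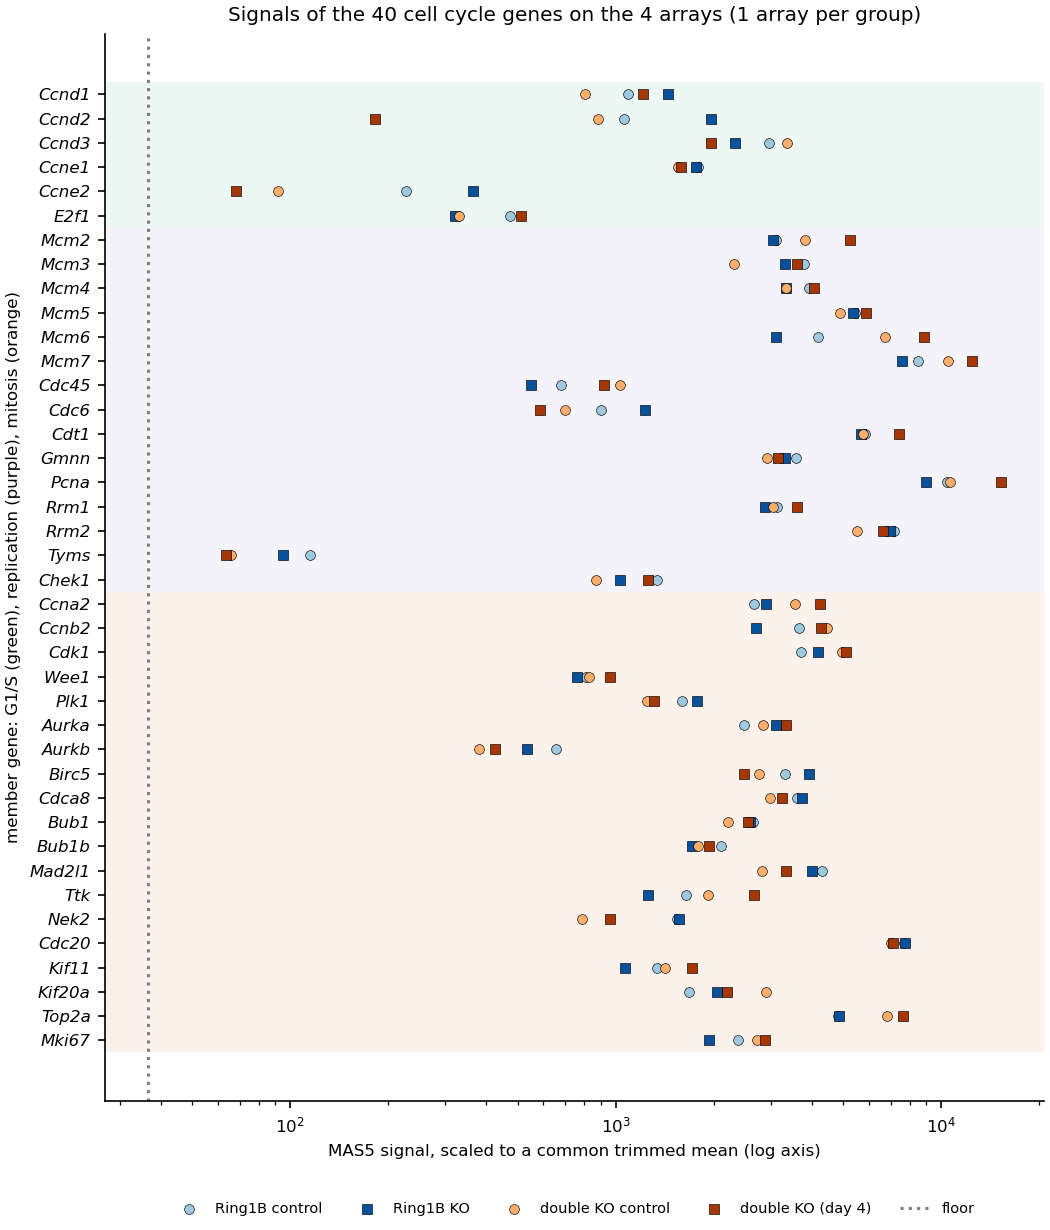
Scaled MAS5 signal (x axis, log scale) of the 40 member genes (rows, shaded by role) on the 4 arrays, with 1 point per array and the floor of 36.6 as a dotted line. Most rows are tight clusters, while the Ccnd2 point of the array labelled dKO (183) lies far left of the other 3 (885 to 1969) and Ccne2 is spread from 68.1 to 365.

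Among the G1/S genes, the 3 D-type cyclins took 3 different courses. D cyclins partner CDK4 and CDK6 and start the inactivation of the retinoblastoma proteins. Ccnd2 had a signal of 1060.2 on the Ring1B control, 1969 on the array labelled Ring1B KO, 885 on the dKO control and 183 on the array labelled dKO. It was 1.86-fold higher on the array labelled Ring1B KO and 4.83-fold lower on the array labelled dKO than on the respective control. The array labelled dKO alone lay far from the others, where Ccnd2 ranked 112 of 12353 genes from the lowest difference. With the controls exchanged between the pairs the differences were 1.15 and -2.53, in the same directions.

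Ccnd2 is measured by 7 probe sets. All 7 were higher on the array labelled Ring1B KO, with log2 differences from 0.71 to 1.06. The 5 that were above the floor on all arrays were lower on the array labelled dKO, with log2 differences of -1.47, -1.48, -2.27, -2.28 and -2.35. Of the remaining 2, 1416123_at read 45.2 on the dKO control and lay at the floor on the array labelled dKO, and 1416124_at lay at the floor on both. The mean over all 7 gave 2.74-fold lower, since the dim ones are held by the floor.

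Ccnd1 read 1091, 1444, 807 and 1214 in the same order of arrays. It was 1.32-fold higher on the array labelled Ring1B KO and 1.5-fold higher on the array labelled dKO, and was thus the D cyclin that was higher in both pairs. Its 3 probe sets shared these directions but not the size, and 1417419_at read 390 and 949 in the dKO pair, a log2 difference of 1.28. Ccnd3 read 2951, 2325, 3353 and 1957, 1.27-fold and 1.71-fold lower. Its other 2 probe sets were at the floor on 2 and on all 4 arrays.

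**Figure D2:**
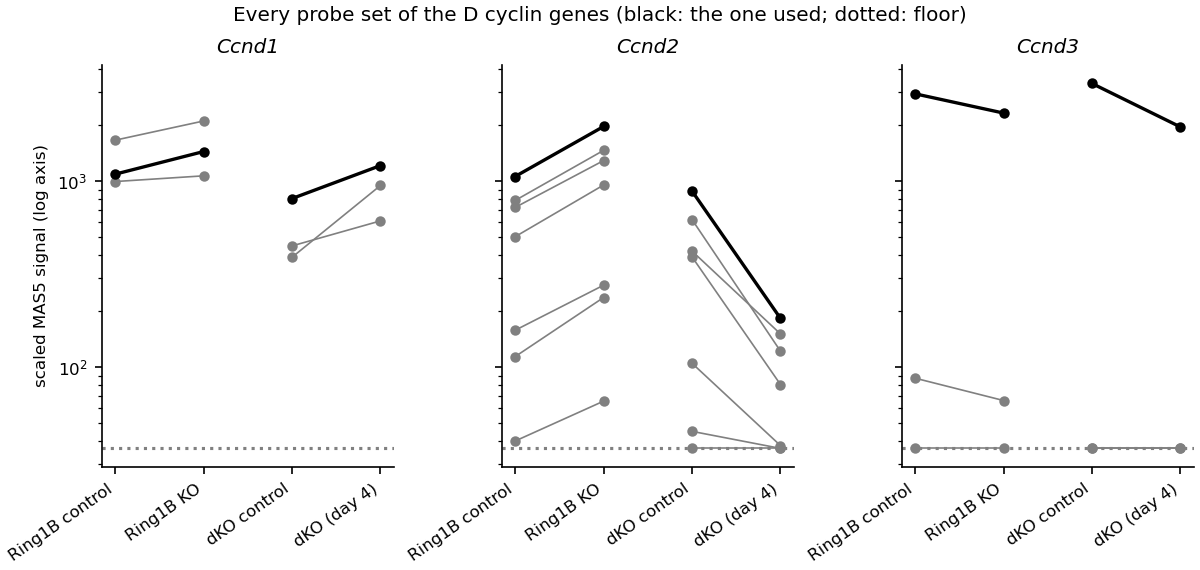
Scaled MAS5 signal (y axis, log scale) of every probe set of Ccnd1, Ccnd2 and Ccnd3 on the 4 arrays (x axis), with lines joining the arrays of a pair, the probe set used in black, the others in grey and the floor dotted. The Ccnd2 lines climb together in the Ring1B pair and drop together in the dKO pair where they are above the floor, from 885 to 183 for the one used.

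Markers of fibroblasts, endoderm and trophoblast, cell types that an ES cell culture can hold or give rise to, differed on balance in the same directions as Ccnd2. The 14 fibroblast markers named on the array, Col1a1 and Thy1 among them, had a summed signal of 18768, 27485, 7746 and 3614 in the above order. Of these, 1, 1, 0 and 3 were at the floor, the 3 being Lum, Pdgfra and Pdgfrb. Their median log2 difference was 0.50 in the Ring1B pair and -1.68 in the dKO pair. The 15 endoderm markers summed to 17312, 30804, 21579 and 16602, with 3, 1, 3 and 7 at the floor, and the 10 trophoblast markers to 2873, 3395, 9894 and 2729, with 3, 1, 1 and 3 at the floor. Their medians, over the markers above the floor in a pair, were 1.96 and 0.34 in the Ring1B pair and -1.11 and -1.67 in the dKO pair. The 8 blood and endothelium markers named on the array summed to 910, 504, 440 and 1358, with 4, 4, 5 and 5 at the floor. The part of such cells in the Ccnd2 difference was not tested.

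E cyclins activate CDK2 at the start of S phase. Ccne1 was alike on all arrays (1791, 1767, 1552 and 1593), and its highest signal was 1.15-fold its lowest. Ccne2 read 227, 365, 91.9 and 68.1, which was 1.61-fold higher on the array labelled Ring1B KO and 1.35-fold lower on the array labelled dKO. E2f1, an activating E2F, read 475, 322, 331 and 513, which was 1.47-fold lower and 1.55-fold higher. Both genes went opposite ways in the 2 pairs, as did Ccnd2, but E2f1 in the reverse sense. A second E2f1 probe set, 1417878_at, was higher in both pairs (178 to 221, and 193 to 342), so the direction of E2f1 in the Ring1B pair depends on the probe set.

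Replication genes differed little but mostly in 1 direction per pair. In the Ring1B pair 14 of 15 were lower, against 51.9% of all genes, with a median log2 difference of -0.15 against -0.02 over all genes. In the dKO pair 12 of 15 were higher, against 45.3% of all genes, with a median of 0.26 against -0.05. With arrays scaled to their median, 10 of 15 were lower in the Ring1B pair, and the dKO median was 0.46 against 0.12 over all genes. As deposited, the dKO median was 0.14 against -0.15, with 11 of 15 higher. Among the bright genes 53.7% were lower in the Ring1B pair and 61.5% were higher in the dKO pair, with medians of -0.02 and 0.09. All these sizes are of the order of the spread between probe sets of 1 gene.

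The 6 subunits of the MCM helicase, which unwinds DNA at the fork, were lower on the array labelled Ring1B KO and higher on the array labelled dKO at their brightest probe sets. Mcm6 read 4177, 3101, 6699.8 and 8865, with log2 differences of -0.43 and 0.40. Mcm3 read 3804, 3325, 2305 and 3597, with -0.19 and 0.64, and Mcm2 read 3108, 3039, 3815 and 5244, with -0.03 and 0.46. The second probe set of Mcm6 (1438852_x_at) placed the pairs in the reverse order (2259.7, 1837, 924 and 1166), with the same directions within pairs. Mcm4, Mcm5 and Mcm7 had differences of -0.24, -0.02 and -0.15 in the Ring1B pair and of 0.28, 0.26 and 0.25 in the dKO pair. When arrays were scaled to their median, Mcm2 and Mcm5 turned to higher in the Ring1B pair, and a second probe set of each gave 0 and 0.05 there. All 6 stayed higher in the dKO pair under each scaling tried, although a dim Mcm3 probe set (1420029_at, 41.1 to 37.1) was lower.

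Among the genes that load and fire origins, Cdt1, the MCM loader, read 5818, 5663, 5752 and 7427, so that the array labelled dKO was the high one. Cdc6, the ATPase that acts with it, was the exception of this class in the Ring1B pair and read 900.5, 1232, 698 and 586, with log2 differences of 0.45 and -0.25. Gmnn, which encodes the CDT1 inhibitor geminin, differed by -0.11 and 0.11. Cdc45, which joins the helicase when it fires, differed by -0.31 and -0.16 at its brightest probe set. It turned to higher in the dKO pair with scaling to the median (0.04), and a dim second probe set (1457838_at) gave 0.27 and 0.49, so that the mean over both was -0.02 and 0.17. Pcna, the sliding clamp of the DNA polymerases, read 10411, 8977, 10666 and 15283, with both controls alike and the array labelled dKO 1.43-fold above its own.

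Of the genes that supply nucleotides, Rrm1 and Rrm2, the subunits of ribonucleotide reductase, differed by -0.12 and -0.04 in the Ring1B pair and by 0.25 and 0.26 in the dKO pair. Tyms, thymidylate synthase, was dim (115, 95.3, 66.0 and 63.4) and differed by -0.28 and -0.06. Chek1, the kinase that guards stalled forks, read 1341, 1033, 873 and 1256, with -0.38 and 0.52. Its 3 probe sets above the floor on all arrays shared both directions.

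The direction of the replication genes went with other measures of these arrays. The summed signal of the 12 ES cell markers was 64660, 54445, 52889 and 69750, with none at the floor, and their median log2 difference was -0.26 in the Ring1B pair and 0.66 in the dKO pair. The 11 housekeeping genes named on the array had medians of -0.14 and 0.10. The part of cell identity or of scaling in the replication differences was not tested beyond the scalings given in the closing section.

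**Figure D3:**
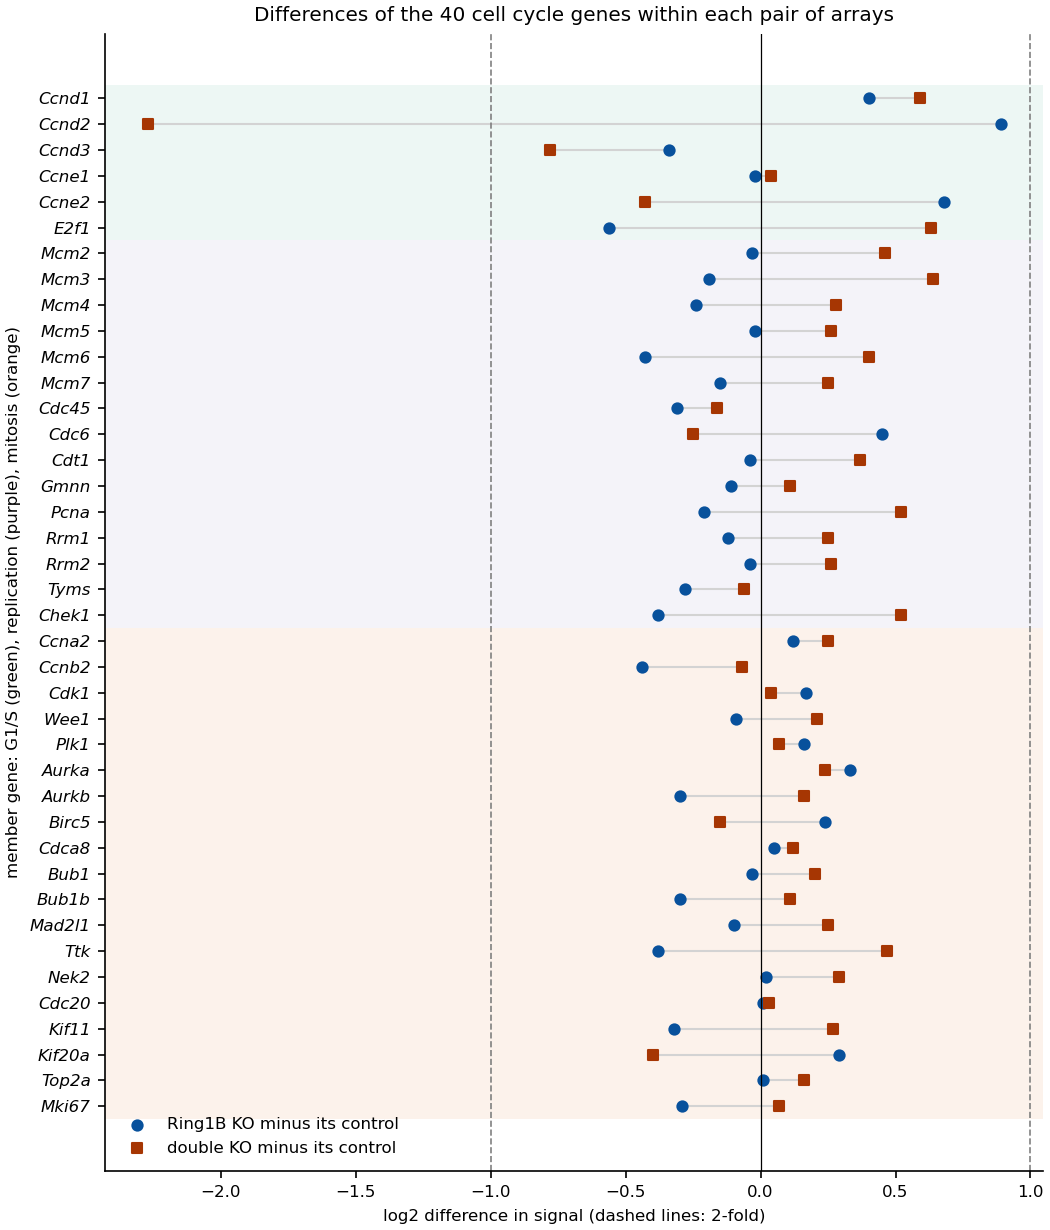
Log2 difference in signal (x axis) of the 40 members (rows, shaded by role) for the array labelled Ring1B KO minus its control (circles) and the array labelled dKO minus its control (squares), with dashed lines at 2-fold. Replication genes have most circles left of 0 (14 of 15) and most squares right of it (12 of 15), and Ccnd2 (0.89 and -2.27) is the one row that crosses a dashed line.

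Promoter sequence is shown for 3 MCM genes and, with the mitosis genes, for 2 more, since replication and mitosis genes are textbook targets of different promoter elements. Mcm3 had the largest difference of the class in the dKO pair, and Mcm6 that of the MCM genes in the Ring1B pair. Mcm5 stands for those with several E2F words. E2F factors bind a site searched here as TTCCCGC, or TTGGCGC, or TTGCCGC, or TTCGCGC. NF-Y binds the CCAAT box, searched as CCAAT. The cell cycle genes homology region (CHR), bound by the DREAM and B-MYB complexes, was searched as TTTGAA. Both strands were searched in the 280 bases from 250 before to 30 after the start of transcription, in the RefSeq promoter table of build GRCm38.p6, and overlapping matches were each counted. In the following, 5′ to 3′ along the gene, capitals mark E2F and CCAAT words on either strand.
Mcm3 (chr1:20820283-20820562, minus strand): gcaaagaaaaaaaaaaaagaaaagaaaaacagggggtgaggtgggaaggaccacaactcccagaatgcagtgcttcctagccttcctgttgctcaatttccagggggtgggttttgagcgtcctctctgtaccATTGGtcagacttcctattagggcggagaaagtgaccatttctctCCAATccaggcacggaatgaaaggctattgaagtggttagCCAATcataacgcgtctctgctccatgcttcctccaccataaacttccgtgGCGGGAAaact
Mcm5 (chr8:75109259-75109538, plus strand): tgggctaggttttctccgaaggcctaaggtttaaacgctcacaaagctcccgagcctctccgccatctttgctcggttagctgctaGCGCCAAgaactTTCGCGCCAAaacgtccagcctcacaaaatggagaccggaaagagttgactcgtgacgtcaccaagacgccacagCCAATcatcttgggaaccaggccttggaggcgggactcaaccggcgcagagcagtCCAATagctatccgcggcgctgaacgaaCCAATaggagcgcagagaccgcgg
Mcm6 (chr1:128359676-128359955, minus strand): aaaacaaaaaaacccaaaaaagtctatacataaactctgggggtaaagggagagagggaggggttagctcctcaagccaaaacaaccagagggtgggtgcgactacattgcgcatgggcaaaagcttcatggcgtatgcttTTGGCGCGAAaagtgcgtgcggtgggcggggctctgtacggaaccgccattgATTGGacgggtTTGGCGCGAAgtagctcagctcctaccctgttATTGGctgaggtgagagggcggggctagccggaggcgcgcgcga

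Of the 40 members 31 had an entry in that table, 13 of them replication genes. An E2F word was present in 8 of these 13, namely Cdc6, Cdt1, Mcm3, Mcm5, Mcm6, Mcm7, Rrm1 and Rrm2, against 10.1% of 27025 genes with an entry. The CCAAT box was present in 9 of 13, against 39.7%, and the CHR in 2 of 13, against 19.5%. Of the 8 genes with an E2F word, all but Cdc6 were lower in the Ring1B pair and higher in the dKO pair, though Mcm5, Cdt1 and Rrm2 turned in the Ring1B pair with scaling to the median. The same held for 12 of 15 genes of the whole class and for 3461 of 11615 genes above the floor in both pairs. Mcm2 and Pcna, with an entry but no E2F word, also had these directions, and Cdc45 did not. The remaining genes of the class had either no entry or an entry without the word. Among these, Mcm4, Gmnn and Chek1 had these directions, and Tyms did not. A link between the word and the direction was not tested. These matches describe letters in a window and not binding.

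Mitosis genes showed the smallest differences of the 3 classes in the dKO pair, with a median size of 0.16 on the log2 scale beside 0.26 for replication and 0.61 for G1/S genes. In the Ring1B pair 9 of 19 were lower and 10 higher, with a median of 0.01 against -0.02 over all genes, and a range from -0.44 (Ccnb2) to 0.33 (Aurka). In the dKO pair 16 of 19 were higher, against 45.3% of all genes and 61.5% of the bright ones, with a median of 0.16 against -0.05 and 0.09, and a range from -0.40 (Kif20a) to 0.47 (Ttk). With the values as deposited, 9 of these 19 were lower and 10 higher in the dKO pair, with a median of 0.03 against -0.15 over all genes. The counts by direction thus rest on the scaling, while the class median was above that of all genes in both settings.

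Among the kinases and cyclins of mitotic entry, Ccnb2 had the largest difference within a pair (-0.44 in the Ring1B pair). Cdk1, the mitotic kinase, read 3718, 4189, 4947 and 5087, and its partner Ccnb2 (cyclin B2) read 3649, 2690.4, 4475 and 4272. Ccna2 (cyclin A2) read 2662, 2891, 3565 and 4233 and was higher in both pairs, by 0.12 and 0.25. For Cdk1, Ccnb2 and Ccna2 the 2 pairs did not overlap, with both arrays of the dKO pair above both of the Ring1B pair. Such a gap was common among the members and not particular to these genes. Mcm2, Pcna, Top2a, Kif20a and Mki67 were among those that had it too. Ccnd2, Ccne1, Ccne2, Tyms, Aurkb, Mad2l1 and Nek2 were among those that had it the other way. The share of this gap over all genes was not counted, so nothing is read from it here. By another measure, 20.3% of 12645 genes were at least 2-fold apart between the control arrays alone. At a second Ccna2 probe set (1417910_at; 2003, 1800.1, 1899.8 and 2443) the pairs overlapped, and the Ring1B difference was -0.15. Wee1, the kinase that restrains CDK1, differed by -0.09 and 0.21, and the Polo kinase Plk1 by 0.16 and 0.07.

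The Aurora kinases and their partners form the next group. Aurka, the centrosomal Aurora kinase, read 2482, 3118, 2833 and 3345 and was higher in both pairs. Aurkb, the kinase of the chromosomal passenger complex, read 658, 534, 379.8 and 425. Its partners Birc5 (survivin) and Cdca8 (borealin) differed by 0.24 and 0.05 in the Ring1B pair and by -0.15 and 0.12 in the dKO pair, so the subunits of this complex did not go 1 way together.

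The 4 members of the spindle checkpoint, which delays anaphase until all chromosomes are attached, were lower in the Ring1B pair and higher in the dKO pair at their brightest probe sets. The further checkpoint genes did not share this, since Bub3, named after its values were seen, differed by 0.14 and 0.07 and Mad1l1 by 0.43 and -0.98. Bub1 turned in the Ring1B pair with scaling to the median and at a dim second probe set (1438571_at, 0.63; mean over both, 0.30), and Bub1b in the dKO pair with quantile normalization or the values as deposited. The kinase gene Bub1 differed by -0.03 and 0.20, Bub1b by -0.30 and 0.11, Mad2l1 by -0.10 and 0.25 and Ttk by -0.38 and 0.47. Ttk read 1641, 1257, 1919 and 2658, and its second probe set shared both directions. Cdc20, the activator of the anaphase-promoting complex that the checkpoint restrains, was alike on all arrays (7704, 7759, 7005 and 7139.7), the smallest spread of the 40 at 1.11-fold, although a second probe set (1416664_at) ran from 4784 to 7809.8.

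Kif11, the motor that separates spindle poles, read 1341, 1071, 1419.8 and 1717, and Kif20a, a motor of cytokinesis, read 1675, 2054, 2895 and 2192. Kif20a was the mitosis gene furthest below its control in the dKO pair. Nek2, a centrosome kinase, read 1546, 1564, 789 and 963, with log2 differences of 0.02 and 0.29. Top2a, topoisomerase II alpha, read 4816, 4862, 6822 and 7634. Mki67, the proliferation antigen Ki-67, read 2377, 1940.3, 2728 and 2872, with log2 differences of -0.29 and 0.07.

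For the mitosis class the promoters of the genes with the largest difference in each pair are shown, Ccnb2 in the Ring1B pair and Ttk in the dKO pair among higher genes. Capitals mark the CCAAT boxes and the CHR word on either strand, and neither window holds an E2F word.
Ccnb2 (chr9:70421525-70421804, minus strand): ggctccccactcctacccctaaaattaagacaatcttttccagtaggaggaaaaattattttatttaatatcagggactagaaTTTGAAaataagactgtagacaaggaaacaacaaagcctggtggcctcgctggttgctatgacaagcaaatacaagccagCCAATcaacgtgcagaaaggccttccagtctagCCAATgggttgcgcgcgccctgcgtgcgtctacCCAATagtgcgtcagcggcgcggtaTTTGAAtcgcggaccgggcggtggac
Ttk (chr9:83834439-83834718, plus strand): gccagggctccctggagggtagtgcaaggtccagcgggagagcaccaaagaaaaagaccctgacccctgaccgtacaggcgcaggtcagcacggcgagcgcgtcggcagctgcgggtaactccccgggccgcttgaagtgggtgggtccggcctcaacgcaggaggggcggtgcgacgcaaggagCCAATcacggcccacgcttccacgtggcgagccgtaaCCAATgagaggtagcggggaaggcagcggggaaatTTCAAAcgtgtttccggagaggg

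Of 15 mitosis genes with a promoter entry, 13 had a CCAAT box, against 39.7% of all genes with an entry, and 8 had a CHR, against 19.5%, namely Ccnb2, Cdc20, Cdca8, Cdk1, Kif11, Mki67, Top2a and Ttk. An E2F word was present in 2 (13.3%), Cdk1 and Mki67, near the 10.1% of all genes. The 3 G1/S genes with an entry had neither an E2F word nor a CHR.

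The differences in the 2 pairs, which share no array, were set against each other. Of 40 members 27 went opposite ways in the 2 pairs (67.5%), against 62% of 11615 genes above the floor in both and 62.7% of the bright genes. Across members Pearson's r between the 2 differences was -0.56, and -0.31 without Ccnd2, against -0.46 across all genes. Genes are not independent replicates, and these values describe 4 arrays. In the replication class 12 of 15 were lower in the Ring1B pair and higher in the dKO pair, and 1, Cdc6, was the reverse. In the mitosis class 8 of 19 and 2 of 19 were so. Of the 11615 genes, 3461 were lower and then higher, and 3738 were the reverse. Of the 2631 bright genes these counts were 1025 and 625. The mitosis share that was lower and then higher was thus near that of the bright genes.

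**Figure D4:**
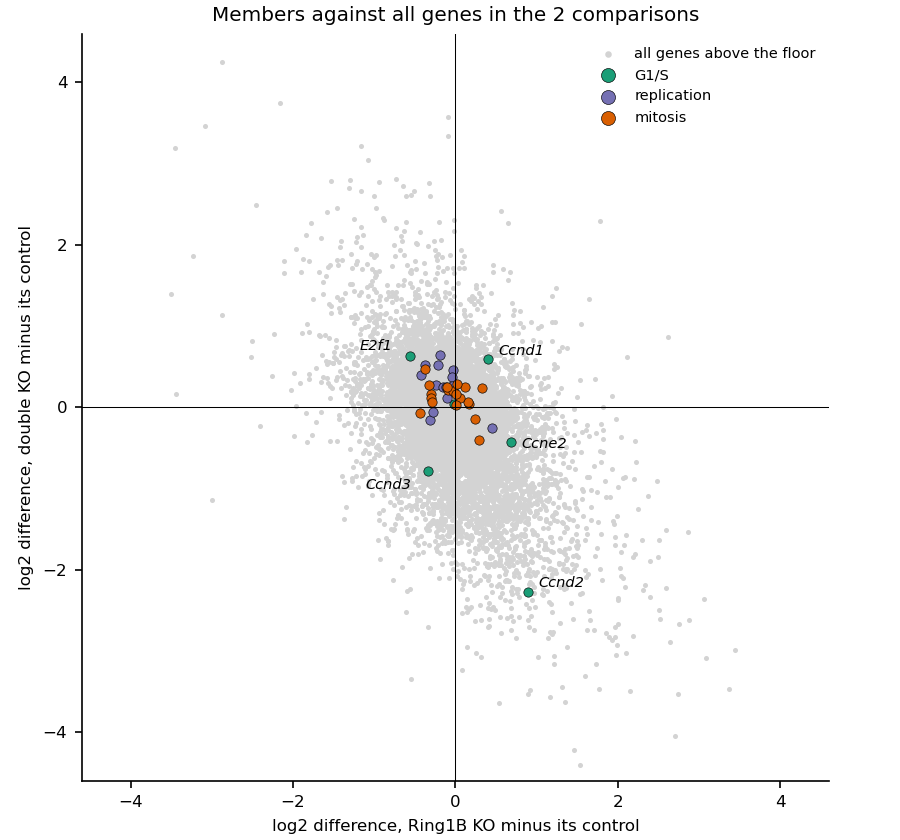
Log2 difference of the array labelled dKO minus its control (y axis) against that of the array labelled Ring1B KO minus its control (x axis) for all genes above the floor in both pairs (grey, 11615) and for the 40 members, coloured by role. The grey cloud slopes downward (r = -0.46), most members lie in its centre, and Ccnd2 lies apart at 0.89 and -2.27.

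Other genes of the same pathways were read in the same way. Of 41 further replication genes measured, 0 were at least 2-fold apart in either pair, against 6.15% and 13.0% of all genes. In the Ring1B pair 29 of 41 were lower, against 51.9%, with a median of -0.12. In the dKO pair 36 of 41 were higher, against 45.3%, with a median of 0.24, a count that was 29 with the values as deposited. The largest differences were in Prim2, the large primase subunit (-0.72), and Tk1, thymidine kinase (0.46), in the Ring1B pair, and in Orc5, of the origin recognition complex (0.82), and Tk1 (-0.34) in the dKO pair. Of 42 further mitosis genes above the floor, 0 were at least 2-fold apart in either pair. Beside the same shares of all genes, 32 of 42 were lower in the Ring1B pair and 28 of 42 higher in the dKO pair, with medians of -0.10 and 0.12. As deposited, 21 of 42 were higher in the dKO pair. With scaling to the median, 25 of 41 further replication genes and 26 of 42 further mitosis genes were lower in the Ring1B pair. In the dKO pair 40 of 41 and 37 of 42 were then higher. Of the bright genes 53.7% were lower in the Ring1B pair and 61.5% higher in the dKO pair, and 1.67% and 3.46% were at least 2-fold apart. The kinetochore gene Nuf2 (-0.82) and the checkpoint gene Mad1l1 (0.43) were the extremes in the Ring1B pair, and the kinetochore gene Spc24 (0.72) and Mad1l1 (-0.98) in the dKO pair.

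Of the 17 further G1/S genes 2 were at least 2-fold apart in the Ring1B pair and 2 in the dKO pair, 11.8% in each, against 6.15% and 13.0% of all genes. Mycn, a transcription factor of the Myc family, read 2637, 1261, 1711 and 3596, which was 2.09-fold lower on the array labelled Ring1B KO and 2.1-fold higher on the array labelled dKO. Tfdp2, an E2F dimer partner, read 886, 290, 389 and 722, 3.06-fold lower and 1.86-fold higher. E2f6, a repressive E2F that is also found in a variant Polycomb repressive complex 1, read 409, 733, 968 and 444, 1.79-fold higher and 2.18-fold lower. With exchanged controls the signs of Mycn stayed (-0.44 and 0.45), Tfdp2 turned in the dKO comparison (-0.42 and -0.30), and E2f6 turned in both (-0.40 and 0.12). The mean over each gene's probe sets gave smaller differences, none of 2-fold: -0.35 and 0.83 for Mycn, -0.90 and 0.80 for Tfdp2, and 0.56 and -0.65 for E2f6. With scaling to the median, E2f6 was at -0.93 and Tfdp2 at 1.09 in the dKO pair.

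Between the control arrays, both labelled wild-type, 1 of 40 members was at least 2-fold apart, where 20.3% of 12645 genes were. This was Ccne2, 2.48-fold lower on the dKO control (227 and 91.9). The members' median was -0.18 against 0.13 over all genes, and Nek2 (-0.97), Tyms (-0.81), Aurkb (-0.79) and Kif20a (0.79) came next. Several of these sizes depended on the probe set. Mcm6 was 0.68 at its brightest probe set and -1.29 at 1438852_x_at (2259.7 and 924), Mcm4 was -0.23 and -1.74 at its 2 probe sets, and of 27 members with several probe sets above the floor 15 had probe sets of both signs, against 9 in the Ring1B pair and 6 in the dKO pair.

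Against the control of the other pair, 3 of 40 members were at least 2-fold apart on the array labelled Ring1B KO, where 19.1% of all genes were, and 3 of 40 on the array labelled dKO, where 17.7% were. They were Ccnd2, Ccne2 and Mcm6 each time. Ccnd2 (1.15) and Ccne2 (1.99) were higher and Mcm6 (-1.11) was lower on the array labelled Ring1B KO, and the same genes had -2.53, -1.74 and 1.09 on the array labelled dKO. The replication class lost its direction in this setting for the array labelled Ring1B KO, with 8 of 15 lower and a median of -0.01, and had 9 of 15 higher and a median of 0.11 for the array labelled dKO.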

How the data were processed

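Total RNA of 4 mouse ES cell cultures was labelled in a single cycle with biotin and hybridised to Affymetrix arrays, per the labels' protocols. The deposited value is a linear signal intensity per probe set (45101 of them), which the authors made with MAS5 according to the submitters' processing notes, in which no version or setting is named. The 2%-trimmed mean of the deposited intensities was 500 on both Ring1B arrays, 160 on the dKO control and 147 on the dKO array, so arrays were scaled by factors of 0.554, 0.554, 1.73 and 1.89. Signals were floored at the 40th percentile of singly named probe sets (36.6) and log2-transformed in Python 3.11.15. This shrinks differences of dim genes. Genes were named from the platform annotation: 34945 probe sets outside the 64 manufacturer's controls had 1 symbol, 932 had several and were not used. The brightest probe set stood for a gene. A difference of 2-fold was counted, beside its share over all genes that exceeded the floor on 1 or both arrays compared. All 40 members are named, and of the further lists the genes past 2-fold or else the extremes. Promoter sequences are RefSeq's. The members and lists were chosen with earlier results of these data known. The steps were tested on simulated data. No separate cultures are on record, 1 array per group allows no test, and precision is limited by the number of arrays. Alternatives changed the scaling, floor, probe set, threshold and control. Some genes of the further lists were not analysed here.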

Additional observations from a re-analysis of the deposited data

Results flagged for a closer look

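For 10 genes the log2 differences in the Ring1B pair and in the dKO pair had opposite signs and lay at least 2-fold apart. With 1 array per group, the difference between the pairs was not tested for any of them. Such a gap was found for 2530 of the 11615 genes above the floor in both pairs (21.8%), for 3 of the 40 members and for 7 of 101 further cell cycle genes. Values below are the Ring1B difference minus the dKO difference. Among members it was 3.17 for Ccnd2, 1.12 for Ccne2 and -1.19 for E2f1, the last with a second probe set of the opposite sign in the Ring1B pair. Among further G1/S genes it was 1.97 for E2f6, -2.50 for Tfdp2 and -2.14 for Mycn. Among further replication genes it was -1.22 for the primase gene Prim2 and -1.07 for the clamp loader gene Rfc1, which differed by -0.40 and 0.67. Among further mitosis genes it was 1.40 for Mad1l1 and -1.20 for Spc24.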

How the results depend on the processing

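No paired analysis was possible because each group has 1 array, and no replicate could be left out. Ccnd2 was the member furthest below its control in the dKO pair under each scaling and floor tried, at -2.40 with values as deposited, -2.13 with quantile normalization and -2.08 with scaling to the median. Scaling to the median moved the dKO median over all genes from -0.05 to 0.12, that of the members from 0.21 to 0.40 and that of the replication genes from 0.26 to 0.46, which was 0.14 as deposited. As deposited, the members' dKO median was 0.08, and the median between the controls was -1.82 with 38 of 40 members at least 2-fold apart, since the pairs were then on different scales. With the controls exchanged, the median was 0.06 for Ring1B and 0.08 for dKO, with 3 members past 2-fold in each, and E2f6 turned to 0.12 in dKO. Counting each probe set gave 1 past 2-fold in the Ring1B pair, 6 in the dKO pair and 12 between controls. A 1.5-fold threshold gave 2, 5 and 10 members. Between controls the count of 1 became 2 with quantile normalization, 0 with the floor at the 60th percentile, 3 with the mean over probe sets and 2 without probe sets of the _s_at, _x_at and _a_at kinds. That median was -0.01 with scaling to the median and 0.03 without those probe sets. Signs also turned for the G1/S median in the dKO pair (0.04 with the floor at the 60th percentile) and, between controls, for the replication median (0.02 with scaling to the median) and E2f6 (-0.40 as deposited). The cause of these shifts was not tested. Nearness to the floor limits Tyms, Ccne2 and the dim Ccnd2 probe sets.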

Other observations

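A probe set annotated to both Tyms and its pseudogene, and so not used above, read 1276 on the Ring1B control, 1262 on the array labelled Ring1B KO, 1754 on the dKO control and 2578 on the array labelled dKO. Its log2 differences were -0.02 and 0.56, while the singly named Tyms probe set gave -0.28 and -0.06 at signals of at most 115. Which transcript each detects was not tested.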
